A study of Arabidopsis thaliana with 22 samples.

Results

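Of the 6782 probe sets that name exactly 1 gene on these arrays, 150 (2.21%) were higher at both steps of the life of leaf 10 of Arabidopsis thaliana at ambient CO2, and these 150 genes are described here. They were chosen from the means of the ambient arrays alone: expanding leaves had to lie at least 0.8 above primordia, and mature leaves at least 0.8 above expanding leaves. All values are log2 levels set to a median of 0 on every array, so a difference of 1 is a doubling relative to the median probe set. Folds assume base 2, which the spread of the values points to. Each of the 150 probe sets named a different gene. Another 133 probe sets that were unnamed here and 4 that named several genes also met both thresholds and were left out.

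The plants were wild-type Col-0, the standard laboratory accession. Leaf 10 was taken at 3 stages under elevated CO2 (750 ppm) and ambient CO2 (370 ppm): dissected primordia (4 arrays per CO2 level), leaves in rapid expansion (3 arrays per level) and fully expanded mature leaves (4 arrays per level). All plants spent their first 7 days at 370 ppm, with days of 10 h at 21 °C, nights of 14 h at 18 °C and a light intensity of 300 µmol per square metre and second. They were then randomized between 2 chambers, 1 per CO2 level, and the effects of chamber and CO2 cannot be told apart. Each primordia sample pooled 20 plants, and expanding and mature leaves were taken whole, with the number of plants not given in the sources used here. The series title names dark respiration of the leaf and its dependence on CO2 and developmental stage as the subject.

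Within a group, the correlation between arrays across probe sets lay between 0.969 and 0.992. The stage labels were checked with 2 genes of dividing cells, PRL, a DNA replication factor, and AUR1, a mitotic kinase. Their median level was 1.28 in primordia, -0.91 in expanding leaves and -1.89 in mature leaves at elevated CO2, against 1.27, -0.49 and -1.84 at the same stages at ambient CO2. The 4 measured genes of photosynthetic mesophyll had a median of 4.17, 5.31 and 5.25 at elevated CO2 and of 4.17, 5.52 and 5.39 at ambient CO2. At elevated CO2 both dividing-cell genes fell at both steps. The 4 mesophyll genes rose at the first step, and 1 fell at the second. FMA, a guard cell gene, fell at the second step, and TRY, a trichome gene, rose at the first. No marker of phloem (5 listed) or xylem (6 listed) had a probe set of its own. In whole organs, fewer cells of a type and less RNA per cell cannot be told apart. Elevated replicates 3 and 4 of the mature leaves stood apart from replicates 1 and 2. The median and count of the second step are given with and without them. So are the genes called for CO2 in mature leaves, the median CO2 difference there and TRY. Other results, such as counts by role group and second steps of single genes, are given only with them.

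A leaf begins as a small organ of dividing cells, expands while its cells enlarge and its chloroplasts are completed, and then serves the plant as a source of sugars. During this course it changes from an importer to an exporter of carbon and nitrogen, fills its vacuoles, and builds up defence compounds such as the glucosinolates of the cabbage order. Protein turnover through the ubiquitin pathway and the vacuole goes on throughout, and in old leaves it releases the nitrogen that is sent to younger organs.

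At ambient CO2, where the genes were chosen, the first step had a median of 1.47 (0.80 to 5.83) over the 150 genes and the second a median of 1.05 (0.80 to 3.14). These values are the choice itself and are not tested. The second step was the smaller one in 110 genes and the first in 40. The genes just inside the threshold were AT5G54130 (steps of 0.80 and 0.81), AT4G29890 (0.80 and 0.80) and AT3G01170 (0.99 and 0.80). Just outside it lay AT4G27300 (1.21 and 0.7976), AT3G61200 (0.7952 and 0.91) and AT1G22930 (1.83 and 0.79).

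The elevated-CO2 arrays took no part in the choice, and in them nearly all of the genes rose again. Expanding leaves were called higher than primordia in 148 of the 150 genes and lower in none, by limma at a Benjamini-Hochberg adjusted p under 0.05, against 36.0% of all probe sets called higher and 33.9% called lower. Mature leaves were called higher than expanding leaves in 140 genes and lower in none, against 16.9% and 20.9% of all probe sets. Both steps were called higher in 138 genes, against 10.0% of all probe sets. All 150 genes had positive estimates at both steps, as had 51.2% of all probe sets at the first and 47.0% at the second. The first step at elevated CO2 had a median of 1.84 (0.25 to 6.26) and the second a median of 0.85 (0.25 to 2.41), against medians of 0.01 and -0.02 over all 6782.

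The arrays themselves showed the same separation. All expanding elevated arrays lay above all primordia elevated arrays in 148 of the genes, against 36.3% of all probe sets. All mature elevated arrays lay above all expanding elevated arrays in 134, against 16.7%. The rule's own thresholds, applied to elevated-CO2 arrays, were met by 116 genes, of which 86 were among the 150: 57.3% of the ambient list and 74.1% of the elevated list. The first threshold was met by 147 of the 150 genes and the second by 89. Without mature elevated replicates 3 and 4, the second step had a median of 0.77, and 106 genes were called higher. The share of all probe sets called in that fit is not given here.

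The median level of the 150 genes separated the stages on every array. At elevated CO2 it was -1.61, -1.56, -1.66 and -1.78 on the primordia arrays, 0.19, 0.53 and 0.57 on the expanding arrays, and 1.28, 1.09, 1.54 and 1.56 on the mature arrays. At ambient CO2 it was -1.66, -1.51, -1.93 and -1.78, then 0.25, 0.04 and -0.07, then 1.11, 1.39, 1.33 and 1.40. No array of one stage reached the next stage at either CO2 level, and within a stage the CO2 levels overlapped. At ambient CO2 the rule itself had set the stages apart, so that separation is a description of the choice.

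**Figure D1:**
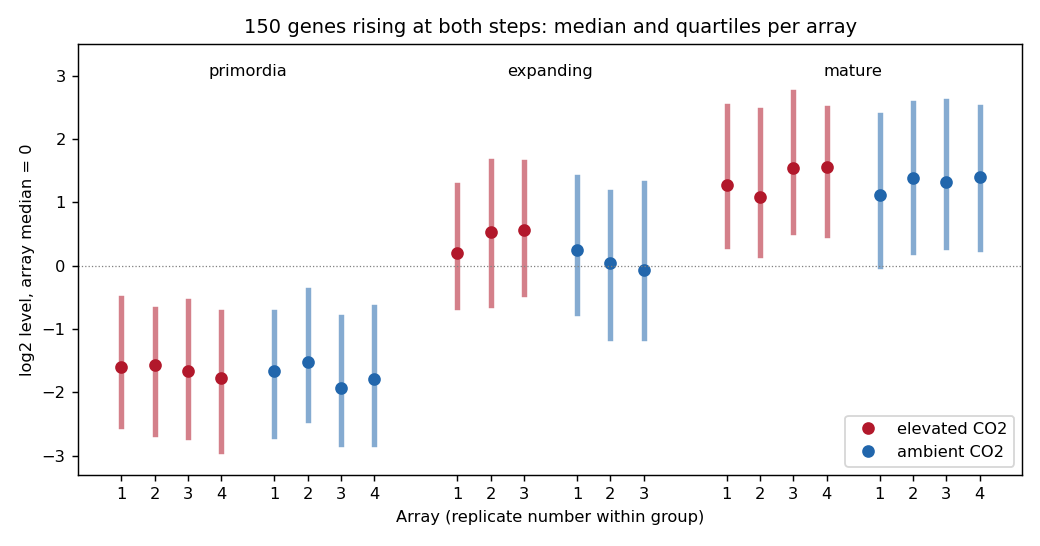
Median (point) and quartiles (bar) of the log2 level of the 150 genes on each of the 22 arrays, by stage, with elevated CO2 in red and ambient CO2 in blue. The medians sit between -1.93 and -1.51 in primordia, between -0.07 and 0.57 in expanding leaves and between 1.09 and 1.56 in mature leaves. The ambient arrays were used to choose the genes.

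**Figure D2:**
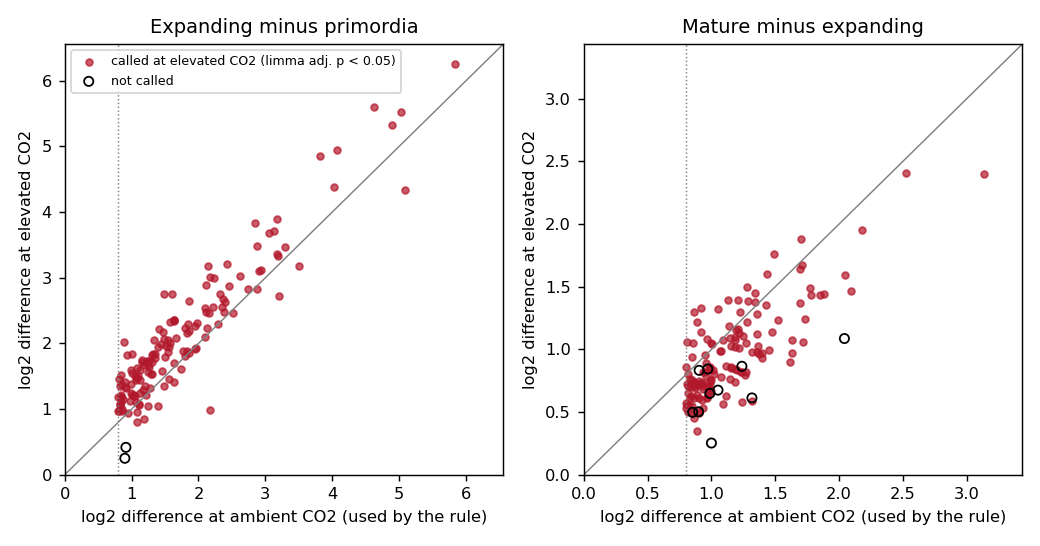
Log2 difference of each of the 150 genes at elevated CO2 (vertical axis) against the same difference at ambient CO2 (horizontal axis, used to choose the genes), for the first step at left and the second at right. The diagonal marks equal steps, the dotted line the threshold of 0.8, and open circles the 2 and 10 genes that were not called at elevated CO2.

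The largest rise in the set belonged to AT1G23130, of the Bet v 1-like family. Its log2 level at elevated CO2 was -2.77, -2.31, -2.64 and -3.85 in primordia, 3.09, 3.55 and 3.47 in expanding leaves and 4.82, 4.70, 4.77 and 4.93 in mature leaves. At ambient CO2 it was -2.66, -2.17, -3.36 and -3.35, then 3.08, 2.73 and 3.03, then 4.54, 4.74, 4.81 and 4.83. The stages did not overlap at either CO2 level, and the whole rise at elevated CO2 was 207-fold. This fold is imprecise, because the low primordia levels varied most (SD 0.67 at elevated CO2, against 0.25 in expanding and 0.10 in mature leaves). Next in the size of the ambient rise came RING1, AT1G67865, AT1G30250, AT4G00780, a TRAF-like protein, BCAT4, AT2G30930, ATSPS4F, MT1C and AT5G24210, of the alpha/beta hydrolases. Their total rise at elevated CO2 lay between 3.40 (MT1C) and 6.69 (RING1). At elevated CO2, 59 of the 150 genes stood at least 8-fold higher in mature leaves than in primordia, and 10 at least 32-fold.

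To order the genes by what they do, 67 of the 150 were placed in 10 role groups from general knowledge of the loci, after their values had been seen. Counts over these groups describe the set and carry no test. The other 83 genes were given no role, and 79 of them were called higher at both steps at elevated CO2.

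The transcription factors numbered 5, and all of them rose at both steps at elevated CO2. A set of 4, AT1G76590, AT1G21000, AT4G17900 and AT1G32700, belongs to the PLATZ family, plant-specific zinc-binding proteins. Of 11 PLATZ loci looked up after this was seen, 5 had a probe set of their own, and the one that was not chosen, AT5G46710, had ambient steps of -0.16 and 0.60 and elevated steps of -0.08 and 0.03, neither of these called. AT1G32700 stood at -2.08, -2.08, -1.98 and -1.93 in primordia, 0.08, 0.17 and 0.67 in expanding leaves and 1.09, 0.89, 1.54 and 1.61 in mature leaves at elevated CO2. At ambient CO2 the same gene stood at -1.91, -1.63, -2.31 and -2.53, then 0.12, -0.87 and -0.81, then 0.02, 0.99, 1.20 and 1.14. The stages were apart at elevated CO2, while at ambient CO2 the lowest mature array lay below the highest expanding array.

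The first step of AT1G32700 at elevated CO2 was 2.32 ± 0.28 (SE, limma adjusted p = 2.29e-07) and the second 0.98 ± 0.28 (adjusted p = 0.00858). AT1G76590 had steps of 1.38 ± 0.23 and 1.44 ± 0.23, so the later step was at least as large as the earlier one. AT1G21000 (steps of 1.73 and 0.96) and AT4G17900 (1.60 and 0.74) made most of their rise by the expanding stage. WRKY47, of the WRKY family of regulators, rose by 1.29 ± 0.23 and 1.30 ± 0.23. It was 1 of 3 WRKY genes measured, and the only one called higher at either step at elevated CO2. No MYB gene had a probe set of its own under that name, and the 1 NAC gene measured was not a member and was called at neither step.

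Of 7 genes of the ubiquitin pathway, which tags proteins for breakdown, 6 rose at both steps at elevated CO2. RING1, a RING-type ubiquitin ligase known to promote programmed cell death, had levels of -2.49, -2.45, -2.55 and -3.01 in primordia, 2.62, 2.88 and 3.44 in expanding leaves and 4.28, 3.26, 4.48 and 4.25 in mature leaves at elevated CO2. At ambient CO2 it had -3.08, -2.77, -3.54 and -3.74, then 2.89, 1.24 and -0.13, then 2.57, 3.40, 3.56 and 3.99. Expanding ambient leaves spanned 3 log2 units, and their highest array reached the elevated arrays. At elevated CO2 RING1 rose 48.7-fold at the first step (5.60 ± 0.47, limma adjusted p = 1.29e-09), whereas the second step of 1.09 ± 0.47 missed the threshold (adjusted p = 0.0724).

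UBC29 and UBC30 are E2 enzymes, which carry ubiquitin to the ligases. UBC29 had levels of -2.93, -3.56, -3.37 and -2.90 in primordia, -1.05, -0.67 and -1.19 in expanding leaves and 0.43, 0.41, 0.51 and 0.53 in mature leaves at elevated CO2. Its levels at ambient CO2 were -2.71, -2.81, -2.57 and -3.17, then -1.16, -1.80 and -1.26, then 0.27, 0.59, 0.48 and 0.46. The stages did not overlap, and UBC29 rose by 2.22 ± 0.17 and 1.44 ± 0.17 at elevated CO2. UBC30 rose by 1.54 and 0.99. The others were the RING proteins AT1G49200 and AT5G38895, the F-box protein AT3G07870 and AT3G52800, which has A20 and AN1 zinc fingers, with first steps between 1.71 and 2.90 and second steps between 0.59 and 0.82. None of 4 measured plant U-box ligases was a member, and none was called higher at both steps at elevated CO2. PUB25 rose at the first, by 1.11, and had -0.31 at the second, while PUB43 had -0.49 at the first, where it was called lower, and rose by 0.38 at the second.

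All 6 genes of protein breakdown or its inhibition rose at both steps at elevated CO2. GAMMA-VPE, a vacuolar processing enzyme that cuts and matures other vacuolar proteins, stood at -0.75, -0.51, -0.89 and -0.62 in primordia, 0.49, 0.85 and 1.26 in expanding leaves and 1.99, 1.62, 2.88 and 2.45 in mature leaves at elevated CO2. Its ambient levels were -0.46, -0.43, -0.51 and -0.70, then 0.76, 0.45 and 0.23, then 1.67, 2.38, 2.24 and 2.40. The mature elevated arrays 3 and 4 were the highest of all 22, and stages did not overlap. Its steps at elevated CO2 were 1.56 ± 0.23 and 1.37 ± 0.23. AT4G16190, a papain-like cysteine protease, rose by 2.09 and 0.71, and AT3G51730, a saposin-type protein, by 1.21 and 0.71. AT1G72060, a small protease inhibitor, rose by 2.36 and 0.99. MAP1B, a methionine aminopeptidase, and AT3G27110, an M48-type peptidase, had second steps of 0.55 and 0.63.

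The autophagy genes, which package cytoplasm for delivery to the vacuole, held no member among 14 measured of 31 listed. At elevated CO2, 11 of the 14 rose at the first step and 8 at the second, 7 of them at both, with median steps of 0.56 and 0.35, against 0.01 and -0.02 over all probe sets with 1 gene. ATG8F, which encodes a ubiquitin-like protein of the autophagosome membrane, rose by 1.14 and 0.65. It missed the choice because its first ambient step was 0.74. Both measured genes of the senescence list, YLS5 and SAG101 (34 listed), rose at the first step at elevated CO2, by 1.14 and 1.41, and neither was called at the second (0.19 and 0.36).

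The 3 genes of glucosinolate and sulfur metabolism rose at both steps at elevated CO2. BCAT4 encodes the aminotransferase that starts the lengthening of methionine for aliphatic glucosinolates. Its levels at elevated CO2 were -3.15, -2.39, -3.34 and -2.24 in primordia, 0.30, 0.33 and 0.32 in expanding leaves and 2.93, 2.51, 2.70 and 2.74 in mature leaves. At ambient CO2 they were -3.39, -2.32, -4.74 and -3.03, then 0.01, -0.61 and -0.81, then 2.24, 2.55, 2.67 and 3.20. The stages were wide apart at both CO2 levels, and the 3 expanding elevated arrays lay close together.

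At elevated CO2 BCAT4 rose 8.57-fold (3.10 ± 0.38, limma adjusted p = 2.97e-07) and then 5.28-fold (2.40 ± 0.38, adjusted p = 6.39e-05). AT2G25450, a dioxygenase that hydroxylates an aliphatic glucosinolate, stood at -1.67, -1.56, -1.42 and -1.41 in primordia, 1.25, 1.46 and 1.24 in expanding leaves and 2.67, 2.52, 2.75 and 2.47 in mature leaves at elevated CO2. The ambient arrays had -1.60, -1.21, -2.09 and -1.36, then 1.43, 1.19 and 1.33, then 2.67, 2.57, 2.70 and 2.75. CO2 levels overlapped at every stage, and the steps at elevated CO2 were 2.84 ± 0.14 and 1.28 ± 0.14.

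APS4 encodes an ATP sulfurylase, the first enzyme of sulfate assimilation. Its levels were -1.59, -1.32, -1.59 and -1.23 in primordia, -0.22, 0.60 and 0.43 in expanding leaves and 1.76, 1.60, 1.85 and 1.72 in mature leaves at elevated CO2. The ambient arrays gave -1.46, -1.37, -1.59 and -1.62, then -0.02, -0.64 and -0.20, then 1.51, 1.94, 1.79 and 1.99. At elevated CO2 the steps were 1.70 ± 0.17 and 1.47 ± 0.17, without overlap between stages. Of the glucosinolate list, 6 of 43 genes were measured, and of these BCAT4 and UGT74B1, the glucosyltransferase of the pathway, were called higher at both steps at elevated CO2. GTR1 and GTR2, glucosinolate transporters, differed: GTR1 rose by 0.68 at the first step and had -0.12 at the second, while GTR2 had 0.29 and then rose by 0.60. Of the sulfate list, 3 of 30 genes were measured, 2 rose at the first step and 3 at the second at elevated CO2.

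Transport proteins numbered 7, and 6 of them rose at both steps at elevated CO2. AT5G61520, a monosaccharide transporter, rose by 1.08 and 1.10, and SFP1, a sugar transporter known from senescing leaves, by 1.85 and 1.38. AT3G21670, a nitrate transporter, had levels of -0.09, -0.13, -0.20 and -0.63 in primordia, 2.23, 2.11 and 1.78 in expanding leaves and 2.87, 2.78, 2.64 and 2.65 in mature leaves at elevated CO2. Its levels at ambient CO2 were 0.07, 0.54, -1.01 and -0.24, then 2.15, 2.00 and 2.25, then 3.23, 3.04, 2.99 and 2.77. The first step was the larger one at elevated CO2 (2.30 ± 0.23 against 0.70 ± 0.23 for the second), and in mature leaves the elevated arrays overlapped the ambient ones.

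AT3G56200 and AT2G40420 belong to the amino acid transporters and rose by 2.63 and 0.97 at the first step. Of a pair of ERD4-like membrane proteins, AT1G69450 rose by 1.68 and 1.59. The other, AT1G11960, had 0.42 ± 0.24 at the first step (limma adjusted p = 0.128) and rose by 1.05 ± 0.24 at the second. In the list of sugar transport and sucrose synthesis, 5 of 19 genes were measured, with 3 higher and 1 lower at the first step and 1 in each direction at the second. No ABC transporter was measured under its family name.

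Of 7 genes of conjugation, redox balance and metal binding, 5 rose at both steps at elevated CO2. MT1C encodes a metallothionein, a small protein that binds metal ions. Its levels at elevated CO2 were 0.23, -0.52, 0.35 and -0.28 in primordia, 0.75, 1.25 and 0.81 in expanding leaves and 3.25, 3.49, 3.45 and 3.20 in mature leaves. At ambient CO2 they were -2.36, -1.28, -1.75 and -1.34, then 0.75, 0.04 and 0.67, then 2.86, 3.04, 3.22 and 2.93. Primordia of the 2 CO2 levels did not overlap, so the first step was smaller at elevated CO2 (0.99 ± 0.24) than the 2.17 by which the gene was chosen, while the second was 2.41 ± 0.24.

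UGT84A3, a glucosyltransferase that acts on sinapate, was 1 of 2 genes not called at the first step at elevated CO2. It stood at -2.25, -2.54, -3.16 and -3.86 in primordia, -2.89, -2.23 and -2.99 in expanding leaves and -1.41, -1.60, -0.97 and -1.49 in mature leaves at elevated CO2. Its ambient levels were -3.38, -2.70, -2.95 and -3.07, then -2.57, -2.04 and -1.76, then -0.95, -1.24, -1.11 and -1.51. At elevated CO2 primordia and expanding leaves overlapped (0.25 ± 0.29, limma adjusted p = 0.448), and the second step of 1.33 ± 0.29 was called. Of 21 UDP-glycosyltransferases measured under that family name, 11 rose and 4 fell at the first step at elevated CO2, and 4 rose and 2 fell at the second. GT72B1, which conjugates foreign phenols, rose by 1.97 and 0.74, GRXC1, a glutaredoxin, by 1.64 and 0.69, and GLX2-5, a glyoxalase, by 1.16 and 0.57. None of 5 glutathione transferases, 9 cytochrome P450s or 6 beta-glucosidases measured was a member. At the second step at elevated CO2, 1 of each of these families rose, and 0, 1 and 3 fell. At the first, 4, 7 and 3 rose, and 0, 0 and 2 fell. MT1C was the 1 measured gene of 20 in the list of nitrogen, phosphate and metal transport or storage.

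Families linked to stress made the largest role group, with 13 genes, of which 12 rose at both steps at elevated CO2. They included the universal stress proteins AT3G01520 and AT1G09740, the LURP-one-like proteins AT2G38640 and AT5G01750, and the FLZ zinc finger proteins AT1G78020 and AT5G20700, with first steps between 1.68 and 2.31. COR15A, a chloroplast protein that protects membranes on freezing, had levels of -1.83, -1.33, -1.54 and -1.47 in primordia, 1.84, 2.09 and 0.99 in expanding leaves and 2.20, 2.10, 3.02 and 2.83 in mature leaves at elevated CO2. The ambient levels were -1.40, -1.22, -1.25 and -1.11, then 1.62, 2.15 and 2.99, then 3.33, 3.26, 3.14 and 3.11. The first step at elevated CO2 was 3.18 ± 0.27 and the second 0.90 ± 0.27. Every mature elevated array lay below every mature ambient array, but the CO2 difference of -0.68 was not called (limma adjusted p = 0.121).

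COR15A was the member among 5 measured genes of the abscisic acid, cold and dehydration list (34 listed). At elevated CO2, 2 of the 5 rose and 2 fell at the first step, and 2 rose and 1 fell at the second. COR15B, its close relative, rose by 0.94 at the first step and fell at the second (-0.87). AT3G16530, a legume-type lectin, and AT5G18470, a mannose-binding type lectin, rose by 2.67 and 3.71 at the first step. At the second, AT3G16530 rose by 1.88 ± 0.28, and AT5G18470 had 0.87 ± 0.57 (limma adjusted p = 0.241). Probe sets for the salicylate defence list (30 listed) carried none of its genes alone, and the 1 jasmonate gene measured of 33, the defensin PDF1.2, was not a member: it had -0.29 at the first step and rose by 2.64 at the second at elevated CO2. No cysteine-rich receptor-like kinase, receptor-like protein or heat shock protein was measured under its family name.

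Of 8 protein kinases and phosphatases, 7 rose at both steps at elevated CO2. The exception, AT1G66880, a receptor-type kinase, stood at -1.77, -1.51, -1.51 and -1.61 in primordia, -0.02, 0.28 and 0.99 in expanding leaves and 1.25, 0.73, 1.64 and 1.42 in mature leaves at elevated CO2. At ambient CO2 it stood at -1.70, -1.58, -1.58 and -1.46, then 0.33, -1.06 and -1.35, then -1.06, 0.20, 0.58 and 1.38. Ambient expanding and mature leaves spread over more than 1.5 log2 units and overlapped. At elevated CO2 it rose by 2.02 ± 0.41 at the first step and had 0.84 ± 0.41 at the second (limma adjusted p = 0.11). The protein phosphatases 2C AT3G16560 and AT4G28400 rose by 1.25 and 1.46 at the first step and by 1.33 and 0.75 at the second.

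Carbon and energy metabolism held 6 genes, and 4 rose at both steps at elevated CO2. NDB2 encodes an NAD(P)H dehydrogenase on the outer face of the inner mitochondrial membrane, which feeds electrons to the respiratory chain without pumping protons. Its levels were -3.51, -3.27, -3.13 and -3.59 in primordia, -0.84, -0.64 and -0.40 in expanding leaves and 0.25, -0.18, 0.92 and 0.71 in mature leaves at elevated CO2. At ambient CO2 they were -2.83, -3.06, -2.94 and -3.74, then -0.89, -1.51 and -2.19, then -1.41, -0.58, -0.33 and 0.16. Stages were apart at elevated CO2, with steps of 2.75 ± 0.32 and 1.05 ± 0.32, whereas expanding and mature ambient arrays overlapped.

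FDH, the mitochondrial formate dehydrogenase, had levels of -0.93, -1.21, -1.03 and -1.46 in primordia, 1.79, 1.98 and 1.82 in expanding leaves and 2.53, 2.47, 3.22 and 3.16 in mature leaves at elevated CO2. The ambient levels were -1.39, -1.12, -1.23 and -0.80, then 1.39, 1.34 and 1.75, then 2.46, 2.94, 2.98 and 2.85. Mature elevated replicates 3 and 4 lay above replicates 1 and 2, and the steps at elevated CO2 were 3.02 ± 0.19 and 0.98 ± 0.19. ATSPS4F, a sucrose-phosphate synthase, the enzyme that commits carbon to sucrose, stood at -1.31, -0.95, -2.73 and -1.69 in primordia, 3.24, 3.22 and 3.36 in expanding leaves and 3.97, 3.98, 3.43 and 3.71 in mature leaves at elevated CO2. The ambient arrays had -0.67, -0.37, -1.34 and -1.42, then 3.28, 2.99 and 3.10, then 4.27, 3.89, 4.01 and 3.74. Most of its rise fell at the first step: 4.94 ± 0.30 at elevated CO2, or 30.8-fold, against a second step of 0.50 ± 0.30 that was not called (limma adjusted p = 0.193).

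QQS, a small protein that affects the balance of starch and protein, rose by 2.76 ± 0.34 at the first step and had 0.61 ± 0.34 at the second (limma adjusted p = 0.167). PMEAMT, a methyltransferase of phosphatidylcholine synthesis, rose by 1.42 and 0.79. psbA, the plastid gene of the D1 protein of photosystem II, rose by 2.34 and 0.99. The labelling kit starts from poly(A) tails, which plastid transcripts carry sparsely, so the psbA value is uncertain as a level.

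All 5 genes of the cell wall, membrane and cytoskeleton rose at both steps at elevated CO2. EXGT-A3, which cuts and rejoins xyloglucan in the wall, stood at 1.09, 0.89, 1.17 and 0.81 in primordia, 2.86, 2.99 and 2.76 in expanding leaves and 3.58, 3.69, 3.60 and 3.34 in mature leaves at elevated CO2. Its ambient levels were 0.86, 1.03, 0.51 and 0.92, then 2.88, 2.67 and 2.43, then 3.59, 3.65, 3.49 and 3.63. The 2 CO2 levels overlapped at each stage, and the steps at elevated CO2 were 1.88 ± 0.13 and 0.68 ± 0.13. TET3, a tetraspanin of the plasma membrane, rose by 3.48 and 1.05, and TUA1, an alpha-tubulin, by 0.94 and 1.08. TBL26, of a family linked to wall acetylation, rose by 2.48 and 0.93.

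**Figure D3:**
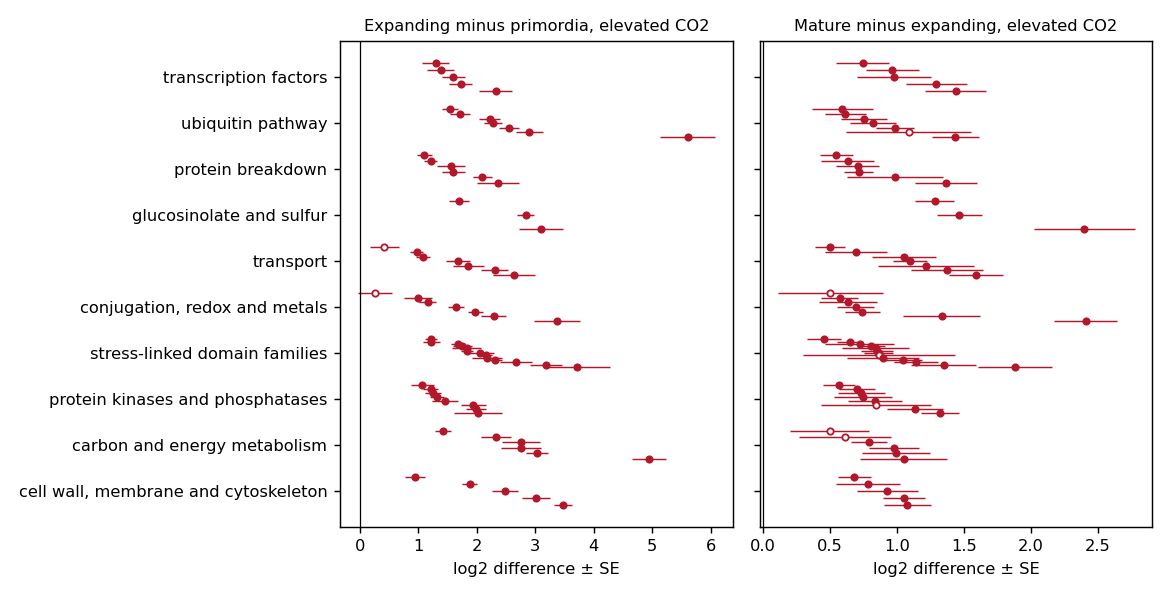
Log2 difference with its SE from limma for each of the 67 genes with a role, by role group, for expanding minus primordia (left) and mature minus expanding leaves (right), both at elevated CO2. Filled points were called at an adjusted p under 0.05 and open points were not; all points lie above 0.

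Among genes given no role, AT2G04795 had one of the largest smaller steps at elevated CO2. It stood at -3.06, -3.38, -3.55 and -3.55 in primordia, -0.60, -1.02 and -0.58 in expanding leaves and 1.07, 1.02, 1.23 and 1.55 in mature leaves at elevated CO2. At ambient CO2 it stood at -2.94, -3.48, -3.41 and -3.38, then -0.83, -1.91 and -1.60, then 0.65, 0.78, 0.90 and 0.61. Stages did not overlap, and it rose by 2.65 ± 0.20 and 1.95 ± 0.20 at elevated CO2. Taken by the smaller of the 2 steps at elevated CO2, the leading genes were BCAT4, AT2G04795, AT3G16530, AT1G30250, AT1G70810, a C2-domain protein, AT1G69450, AT5G02230, a HAD-type hydrolase, APS4, AT5G61820 and UBC29, all with at least 1.44. Near the other end was AT3G26510, a PB1-domain protein, which rose by 1.95 at the first step and had 0.25 ± 0.16 at the second (limma adjusted p = 0.215). Besides the genes named above, second steps of 0.50 ± 0.39 for AT5G52750, a protein with a heavy-metal-binding domain, 0.83 ± 0.33 for AT1G43910, 0.68 ± 0.48 for AT5G43910 and 0.65 ± 0.26 for AT5G63905 were not called.

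The members were spread over the genome. The gene annotation TAIR10.1 placed 149 of the 150: 37, 24, 27, 28 and 32 on chromosomes 1 to 5 and 1 in the plastid. Direct neighbours were AT1G30250 with AT1G30260, UBC29 with the kinase AT2G16750, and GT72B1 with TBL26. The first pair rose by 4.34 and 3.33 at the first step at elevated CO2 and by 1.76 and 1.22 at the second. The probe set of AT2G43200 also matches other transcripts by its type, so its value is uncertain.

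In expanding leaves most members had higher means at elevated than at ambient CO2, but no gene passed the test. limma called 0 of the 150 genes in either direction at an adjusted p under 0.05, as of all probe sets (0.0% higher and 0.0% lower). The smallest adjusted p was 0.122. At an unadjusted p under 0.05, 50 genes were higher and 1 lower, or 33.3% and 0.667% of members, against 6.11% and 8.58% of all probe sets. The median difference was 0.28, against -0.03 over all 6782, and 135 of the 150 were positive, against 44.1% of all probe sets.

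These counts are a description, because the ambient arrays of this comparison also chose the genes. In 110 members the second step was the smaller one, and choosing on it favours a low value in expanding ambient leaves. In the other 40 the first step was smaller, and choosing on it favours a high value there. The median difference was 0.24 in the 110 (99 positive) and 0.37 in the 40 (36 positive). The split itself uses the expanding ambient level, as a higher level there places a gene among the 110. The order of these medians therefore cannot show what the choice added. The rule was also applied to the elevated-CO2 arrays, where choosing on a smaller second step pushes the other way. This alternative was added after seeing the data. It gave 116 genes with a median difference of 0.34 in expanding leaves, 103 of them positive. Of these 116 genes, 86 were also members, so this list does not stand apart from the ambient choice. The 30 that were not members had a median of 0.36, with 26 positive, and a median of 0.39 in mature leaves. These 30 missed a threshold at ambient CO2, so the ambient arrays took part in choosing them too. Members with both ambient steps of at least 1.2, well clear of the threshold, numbered 41, with a median of 0.40 and 36 positive. The other 109 had a median of 0.26, with 99 positive. This split uses the ambient steps of the rule, so it does not remove the choice.

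Over arrays, the members' median in expanding leaves averaged 0.43 ± 0.20 at elevated CO2 and 0.07 ± 0.16 at ambient CO2 (SD, n = 3 each). Ambient replicate 1, at 0.25, lay above elevated replicate 1, at 0.19, so the groups overlapped. Ambient replicate 1 was also the highest of the 3 ambient arrays in 94 of the 150 genes, against 11 for replicate 2 and 45 for replicate 3. All elevated arrays lay above all ambient arrays in 34 genes (7.43% of all probe sets) and below them in 2 (12.9%). Without ambient replicate 1, limma called 7 genes higher, and with array weights it called 11. The shares of all probe sets called in these fits are not given here, so the counts have no background beside them.

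In the group means, more of the members' rise lay in the first step at elevated than at ambient CO2. The first step was larger at elevated CO2 in 127 of 150 genes and the second in 24. By the expanding stage a median of 68.8% of the whole log2 rise was complete at elevated CO2, against 56.5% at ambient CO2. The whole rise had a median of 2.72 at elevated CO2 and of 2.61 at ambient CO2, and was larger at elevated CO2 in 97 genes. The ambient share carries the choice of the genes, so the difference between these shares was not tested.

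Markers of other cell states were read in the same comparison. PRL had a difference of -0.22 and AUR1 of -0.63 (limma adjusted p = 0.28) in expanding leaves, and FMA, the guard cell regulator, of -0.52 (adjusted p = 0.192). TRY, the trichome gene, had -0.08. The 4 mesophyll genes had differences between -0.29 and -0.10. None of these was called, and their part in the members' difference was not tested.

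The largest differences in expanding leaves were those of RING1 (1.64 ± 0.50, limma adjusted p = 0.163), AT5G18470 (1.47 ± 0.61, adjusted p = 0.264) and AT1G43910, an AAA-type ATPase (1.34 ± 0.35, adjusted p = 0.122). For AT1G43910 the levels were -3.29, -3.08, -2.91 and -3.34 in primordia, -0.42, 0.00 and 0.59 in expanding leaves and 0.85, 0.67, 1.27 and 0.77 in mature leaves at elevated CO2. At ambient CO2 they were -4.08, -3.92, -3.17 and -3.69, then -0.17, -1.60 and -2.10, then -0.90, -0.34, -0.29 and 0.00. Mature elevated arrays all lay above the mature ambient ones, while at the 2 earlier stages the levels overlapped. The PLATZ genes AT4G17900 (0.70 ± 0.21, adjusted p = 0.159) and AT1G32700 (0.82 ± 0.30), NDB2 (0.91 ± 0.35) and AT2G04795 (0.71 ± 0.21, adjusted p = 0.161) had positive differences too.

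AT4G17900 had -1.45, -1.70, -1.54 and -1.76 in primordia, -0.30, -0.08 and 0.34 in expanding leaves and 0.62, 0.37, 0.91 and 1.02 in mature leaves at elevated CO2. The ambient arrays gave -1.66, -1.38, -1.86 and -1.97, then -0.25, -0.93 and -0.97, then 0.14, 0.44, 0.58 and 0.72. The lowest expanding elevated array lay just below ambient replicate 1, and the other 2 elevated arrays above all ambient ones. On the negative side, COR15A had -0.62 ± 0.29 and UGT84A3 -0.58 ± 0.31 in expanding leaves, neither of which was called.

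**Figure D4:**
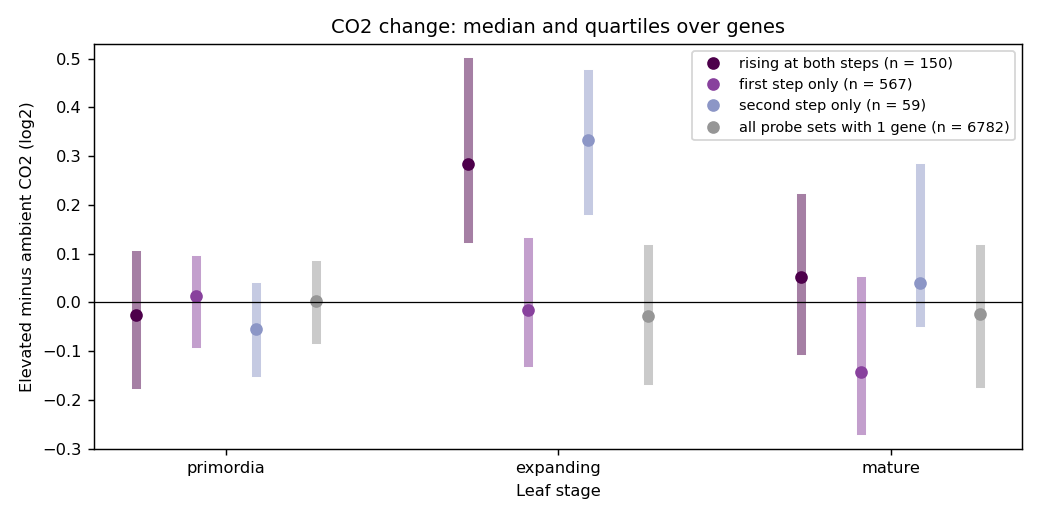
Median (point) and quartiles (bar) over genes of the log2 difference between elevated and ambient CO2 at each leaf stage, for the 150 genes rising at both steps, genes rising at the first or the second step only, and all 6782 probe sets with 1 gene. The sets were chosen from the ambient arrays that also enter the difference; in expanding leaves the 150 genes have a median of 0.28 and the genes of the second step only a median of 0.33.

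In primordia, MT1C was the single member called for CO2, and it was also the only probe set called of all 12511 (0.00799% higher, 0.0% lower). It was 1.63 ± 0.22 higher at elevated CO2 (limma adjusted p = 0.00338). The group means were -0.06 ± 0.41 in elevated primordia and -1.68 ± 0.50 in ambient primordia (SD, n = 4 each). MT1C had differences of 0.45 ± 0.25 in expanding and 0.34 ± 0.22 in mature leaves, neither called, and the CO2 effect was not shown to differ between stages (limma F test, adjusted p = 0.196). With the primordia arrays fitted alone, or with the replicate number as a block, no gene was called. Over the 150 genes the median difference in primordia was -0.02, with 66 positive, against 52.0% of all probe sets. The primordia ambient arrays also chose the genes, for a low level, which pushes this difference up. Values over the members are therefore a description. At an unadjusted p under 0.05, 4 genes were higher and 12 lower, against 1.61% and 2.17% of all probe sets. All elevated arrays lay above all ambient arrays in 2 genes (1.5% of all probe sets) and below them in 1 (1.72%).

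In mature leaves 7 members were called higher at elevated CO2 (4.67%, against 1.76% of all probe sets) and 1 lower (0.667%, against 2.14%). The median difference over the 150 genes was 0.05, and 88 were positive, against 45.8% of all probe sets. The mature ambient arrays also chose the genes, for a high level, which pushes this difference down. Values over the members are therefore a description here too. At an unadjusted p under 0.05, 23 genes were higher and 10 lower, against 9.58% and 12.4% of all probe sets. The elevated arrays lay fully above the ambient ones in 11 genes (4.45% of all probe sets) and below them in 6 (4.76%). AT1G43910 had the largest difference, 1.27 ± 0.31 (limma adjusted p = 0.0287). Next came the lectin AT3G16530, with 3.93, 3.85, 4.39 and 4.17 in mature elevated leaves and 2.91, 3.05, 3.09 and 3.29 in mature ambient leaves. Its elevated arrays lay above all ambient ones, by 1.00 ± 0.26 on average (limma adjusted p = 0.037). At the earlier stages it had -0.13, -1.04, 0.35 and -1.07 in elevated primordia and 1.86, 2.29 and 2.45 in elevated expanding leaves, against -0.94, -0.39, -1.38 and -1.24 in ambient primordia and 1.46, 1.13 and 1.55 in ambient expanding leaves. The CO2 levels overlapped in primordia and were apart in expanding leaves.

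WRKY47 had -3.03, -3.53, -2.94 and -3.05 in primordia, -1.79, -1.66 and -2.07 in expanding leaves and -0.72, -1.07, -0.28 and -0.12 in mature leaves at elevated CO2. The ambient arrays gave -3.41, -3.25, -3.11 and -3.97, then -2.06, -2.41 and -2.32, then -1.70, -1.64, -1.28 and -0.98. In mature leaves the lowest elevated array lay below the highest ambient one, and the difference was 0.85 ± 0.21 (limma adjusted p = 0.0321). AT2G39420, of the alpha/beta hydrolases, differed by 0.81 ± 0.19 (adjusted p = 0.0214), AT1G19380 by 0.67 ± 0.18 (adjusted p = 0.0427), AT5G54130 by 0.58 ± 0.15 (adjusted p = 0.0362) and AT4G19200, a proline-rich protein, by 0.56 ± 0.14 (adjusted p = 0.0338).

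The member that was lower was AT1G61740, of a family of TauE/SafE-type sulfite exporters. It stood at 1.65, 1.39, 1.54 and 1.45 in primordia, 2.56, 2.54 and 2.62 in expanding leaves and 3.08, 2.91, 2.78 and 2.90 in mature leaves at elevated CO2. The ambient arrays had 1.61, 1.54, 1.45 and 1.47, then 2.79, 2.41 and 2.69, then 3.56, 3.44, 3.86 and 3.20. The CO2 levels overlapped in primordia and expanding leaves and were apart in mature leaves, where the difference was -0.59 ± 0.11 (limma adjusted p = 0.0112). It was called higher at both steps at elevated CO2, by 1.07 and 0.35.

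The 7 higher calls were not stable, while the lower call of AT1G61740 was kept in all 8 fits that left out a single mature array, with differences between -0.70 and -0.48. These fits share mature ambient arrays with the choice of the gene, so the kept call does not stand apart from that choice. Without mature elevated replicates 3 and 4 together, none of the 8 genes was called, and the differences were 1.14 for AT1G43910, 0.80 for AT3G16530, 0.50 for WRKY47, 0.65 for AT2G39420, 0.56 for AT1G19380, 0.51 for AT5G54130, 0.32 for AT4G19200 and -0.52 for AT1G61740. The members' median difference was then -0.04, with 61 positive. The count of higher genes was also 0 without ambient replicate 1, ambient replicate 2, elevated replicate 3 or elevated replicate 4, 1 without ambient replicate 3 and 13 without elevated replicate 2. For these fits the share of all probe sets called is not given here. With the mature arrays fitted alone, AT1G61740 was not called (limma adjusted p = 0.134).

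Of the 8 measured markers of other cell types and states, TRY, the trichome gene, was called lower in mature leaves at elevated CO2, with a difference of -0.66 ± 0.18 (limma adjusted p = 0.0478). Its levels ran between -1.45 and -0.79 on the mature elevated arrays and between -0.92 and -0.0029 on the mature ambient arrays, so the groups overlapped. Without mature elevated replicates 3 and 4 its difference was -0.39 and was not called (adjusted p = 0.463). The other 7 markers had differences between -0.34 for AUR1 and 0.25 for PRL, none called. The markers' part in the members' differences was not tested.

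Over the 3 stages, 41 of the 150 genes had a positive CO2 difference at each stage and 7 a negative one. The shares among all probe sets are not given here, and the ambient arrays also chose the genes, so these counts are only a description. Picked for size, and so given as a description only, were 6 genes. RING1, AT5G18470, AT3G16530, AT5G52750, AT1G43910 and AT5G43910, a pfkB-type carbohydrate kinase, had differences of at least 0.5 at all 3 stages. For AT5G52750 these were 0.96, 1.16 and 0.77, and for AT5G43910 0.87, 0.98 and 0.60. No member's CO2 effect was shown to differ between stages: limma's F test called 0 of 150, against 0.032% of all probe sets, and at an unadjusted p under 0.05 it gave 32, against 13.8% of all probe sets.

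**Figure D5:**
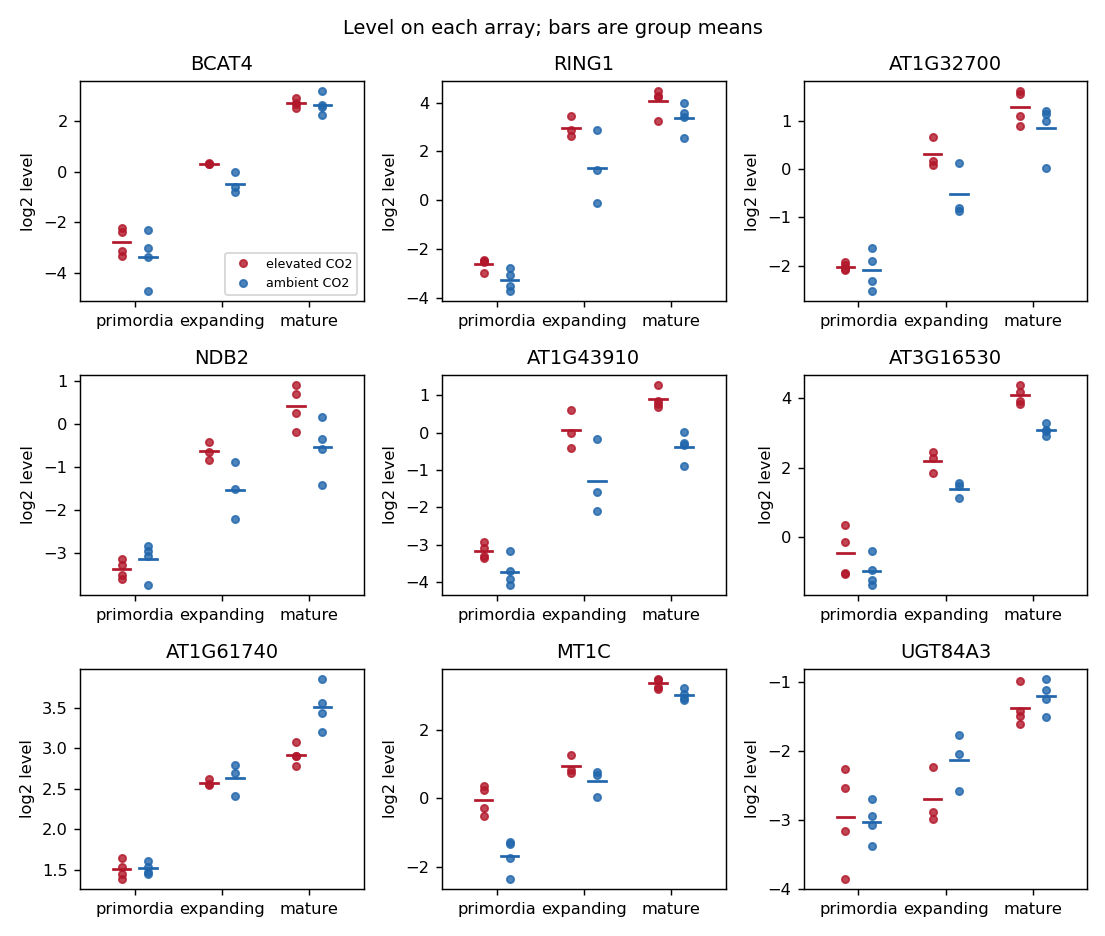
Log2 level of 9 members on each array, by stage, with elevated CO2 in red, ambient CO2 in blue and bars at the group means; each panel has its own scale. MT1C is apart between CO2 levels in primordia, and BCAT4, NDB2 and AT3G16530 are apart in expanding leaves. AT1G43910, AT3G16530 and AT1G61740 are apart in mature leaves. RING1 spans 3 log2 units on the expanding ambient arrays.

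Genes that were higher at only 1 ambient step give a scale for these values. Of 567 genes that were higher at the first ambient step and flat (within 0.4) at the second, 561 rose at the first step at elevated CO2, and at the second 38 rose and 53 fell. Of 59 genes higher at the second ambient step only, 33 rose at the first step and 45 at the second at elevated CO2. In expanding leaves the CO2 difference was positive in 265 of the 567, with a median of -0.01, and in 54 of the 59, with a median of 0.33. All of these sets share the ambient arrays that chose them, so the values stand side by side without a test.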

How the data were processed

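RNA of leaf 10 was measured on 22 Affymetrix arrays, labelled with a kit that starts from the 3′ end per the labels' protocols. The deposited values are log2 levels for 12570 probe sets, between -6.80 and 6.54, and the authors had set the median of each array to 0 over these rows, as the values show. Centring hides a change shared by most transcripts. How background was corrected, how probes were summarised and when arrays were scanned is not given in the sources used here.

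The 59 controls were left out and 12511 probe sets tested: 6782 named exactly 1 gene in the platform annotation, 262 several and 5467 none. Symbols were updated through the TAIR10.1 gene table, which 149 of the 150 members matched. No coordinates are printed because a shared genome build is not given, and no sequences were used here.

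The 6 groups were fitted in 1 cell-means model (limma 3.58.1 in R 4.3.3, 16 residual degrees of freedom, all probe sets, two-sided, Benjamini-Hochberg over the 12511). Errors beside differences are moderated standard errors, and those beside levels are SDs. Only the primordia samples are stated to be biological replicates, so elsewhere p-values measure the spread between arrays, which may be technical. The number of arrays limits the precision. The fit was tested on simulated arrays with known changes.

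The members, gene lists, role groups and tests were chosen with earlier results of these data known. Named are the 10 members with the largest ambient rise, the 10 with the largest smaller step at elevated CO2, up to 8 called for CO2 per stage and direction (or the 4 with the smallest p), up to 6 called at the fewest elevated steps, the members of 15 lists and 12 name families, 3 genes on each side of the threshold, and those the role groups hold. Genes named beyond these were picked after their values were seen. Alternatives were quantile normalization, limma array weights, a filter on low values, a replicate block, a fit per stage or CO2 level, other thresholds or medians in the rule, each array left out in turn, mature elevated replicates 3 and 4 left out together, and, added after seeing the data, the rule applied to the elevated-CO2 arrays.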

Additional observations from a re-analysis of the deposited data

How the results depend on the processing

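At elevated CO2, 148 genes were called at the first step whichever array was left out, and 122 to 142 at the second. Shares of all probe sets called under the alternatives are not given here. The number of genes chosen was 68 with both thresholds at 1.0, 139 after quantile normalization, 149 with group medians, and 134 to 160 with an ambient array left out. In expanding leaves the median CO2 difference stayed between 0.23 and 0.35 with any array left out, the count of higher genes between 0 and 7 (7 without ambient replicate 1), and limma's array weights gave 11. In primordia the count of higher genes was 0 with the primordia arrays fitted alone and 1 to 2 with an array left out, 2 of them without elevated replicate 2. In mature leaves the count of higher genes was 4 with array weights, 0 with the mature arrays fitted alone, 0 without elevated replicates 3 and 4 together, and 0 to 13 with a single array left out; the count of lower genes was 0, 0 and 1 to 2 for the last 3 of these. Of 2150 values of named genes under the alternatives, 2056 kept their direction and side of the threshold, 76 lost the call, 18 gained one and 0 turned their sign. For the other changes the cause was not tested, beyond the smaller number of arrays in fits that leave some out.

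The labels number the replicates alike in every group. Same-numbered elevated and ambient arrays had deviations from their group means that correlated with r between -0.25 and 0.26, so the numbers were not taken to pair the samples. With the replicate block the count of higher genes was 0 in primordia and 2 in mature leaves, 148 genes rose at the first step at elevated CO2 and 137 at the second.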
